A study of Mus musculus with 8 samples.

Results

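The genes described here are 10 core genes of Notch signalling: the receptors Notch1, Notch2, Notch3 and Notch4, the ligands Jag1, Jag2 and Dll4, and the transcriptional effectors Hes1, Hey1 and Heyl. They were listed by name as core genes of the pathway, with earlier results of these data known, and all 10 had a row among the 22052 genes of the deposited table. The livers came from male mice of the C57BL/6 strain, 8 weeks old, that had all received corn oil into the peritoneum. In 4 of them (dKO, genotype Zfp36l1fl/fl/Zfp36l2fl/fl/Alb-Cre) a Cre recombinase under the albumin promoter deletes both floxed genes, and the 4 controls (Zfp36l1fl/fl/Zfp36l2fl/fl) carried the same floxed alleles without Cre. The albumin promoter is active in hepatocytes, and it can also recombine alleles in bile duct cells through their shared fetal precursors. No group here carried Cre with intact alleles, so effects of the deletion and of Cre itself cannot be told apart. The 2 deleted genes encode ZFP36L1 and ZFP36L2, which bind AU-rich stretches of 3′ untranslated regions (3′ UTRs) in messenger RNA and promote decay of the transcript.

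Notch receptors are single-pass membrane proteins that are switched on by ligands on a neighbouring cell. Ligand binding exposes the receptor to ADAM10 and then to γ-secretase, and the freed intracellular domain joins RBPJ and a Mastermind-like protein on DNA to induce genes such as those of the HES and HEY families. In liver, JAG1 acting on NOTCH2 directs the formation of bile ducts. DLL4, JAG1, NOTCH1 and NOTCH4 serve endothelial cells, and NOTCH3 and HEYL mark mural cells, the smooth muscle cells and pericytes around vessels.

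Levels are given as normalised read counts: reads per gene after the authors scaled each library by its own size factor. Between 15253827 and 19299556 reads per library stood behind them. Zfp36l1 had 214, 213, 209.5 and 267 normalised read counts in dKO livers 1 to 4, against 1320.5, 1336, 1182 and 1642 in control livers 1 to 4. Its log2 change was −2.60 (SE 0.11, limma adjusted p = 1.65e-08), and Zfp36l2 fell to 796 ± 94.4 in dKO livers, against 1584 ± 393 in control livers (SD, n = 4 each). The Zfp36l2 log2 change was −0.96 (SE 0.17, limma adjusted p = 0.000689). On the first principal component, with 74.5% of the variance, dKO livers lay between −68.9 and −57.5 and control livers between 43.3 (control 4) and 76.5. On the next component control 3 (34.4) and control 4 (−44.9) lay apart. The hepatocyte product Alb had 797025 to 855738 normalised read counts in dKO livers, against 723960 to 850697 in control livers.

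Of the 10 Notch genes, 7 were higher in dKO livers (Notch3, Notch4, Jag1, Jag2, Dll4, Hey1 and Heyl), none was lower, and Notch1, Notch2 and Hes1 did not pass the test. The test was limma on log2(value + 0.5) over 20055 genes, with a Benjamini-Hochberg adjusted p under 0.05. Over all genes tested, 21.2% were called higher and 17.0% lower, which the 7 of 10 can be read against, though the genes were not chosen blind to these data. In 6 of the 10 genes every dKO liver exceeded every control liver, an order that 19.4% of all tested genes showed, and in none was every dKO liver below every control, which 16.9% showed. The count of 7 was the same without control 4 (21.1% of all genes higher) and with edgeR on recovered reads (27.4% higher). The count of lower genes was likewise 0 at limma's unadjusted p under 0.05 and by edgeR and DESeq2. The median log2 change was 1.02 over the 10 genes, against 0.03 over all genes tested. In a bulk liver sample, more cells of a type and more RNA per cell cannot be told apart.

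**Figure D1:**
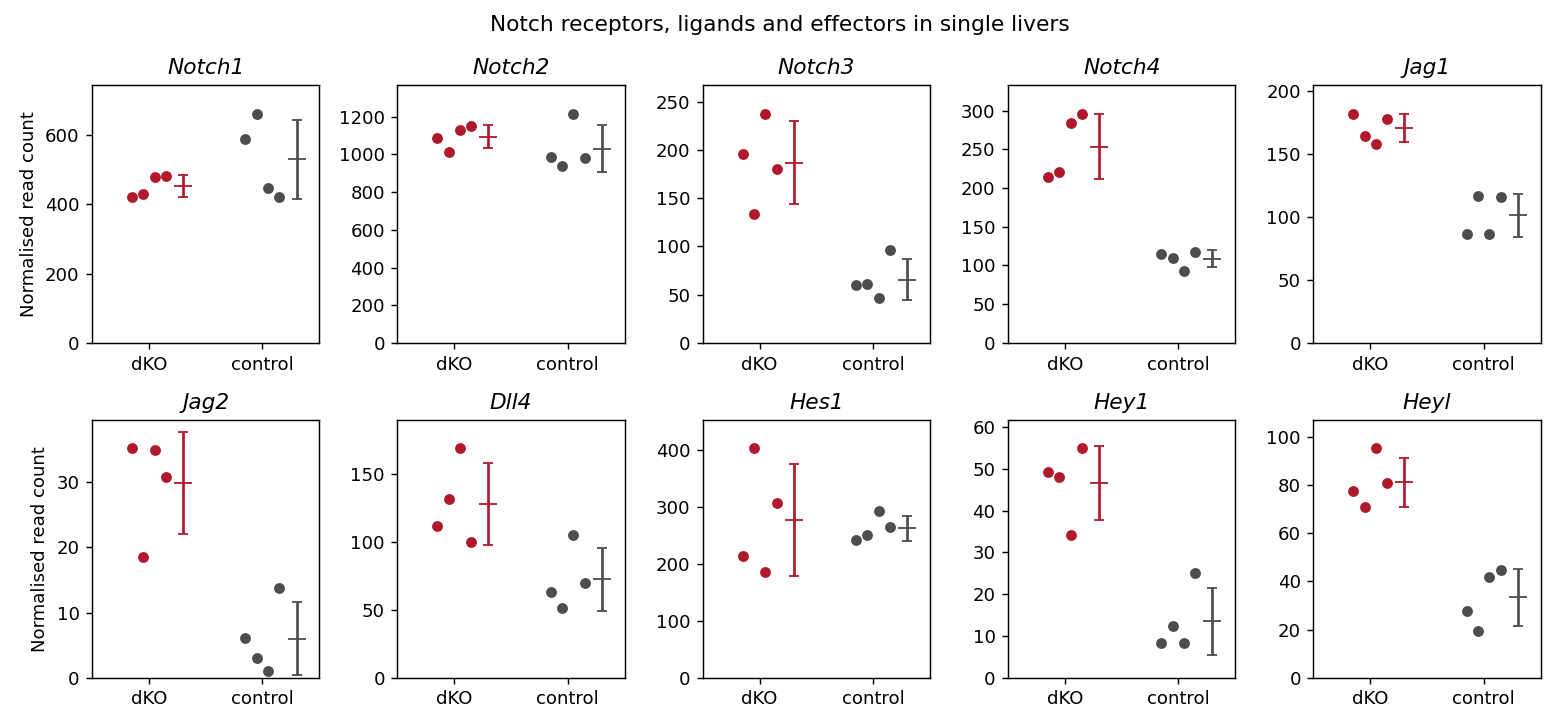
Normalised read counts of the 10 Notch genes (vertical axes, each starting at 0) in single livers, with dKO livers on the left and control livers on the right of each panel; the bars give the mean ± SD of 4 livers. Notch3, Notch4, Jag1, Jag2, Hey1 and Heyl show no overlap between the groups, while Notch1, Notch2, Dll4 and Hes1 do.

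The sequence element that ZFP36-family proteins bind, the heptamer TATTTAT in DNA letters, was sought in the longest annotated 3′ UTR of each gene because the deleted proteins act there. At least 1 copy on the sense strand was present in 5 of the 10 genes, and 28.8% of 15417 tested genes with an annotated 3′ UTR held it. Jag1 had 5 copies in 1568 bases, Notch1 had 4 in 1628 bases, and Notch3 (1000 bases), Notch4 (518 bases) and Dll4 (1329 bases) had 1 each. The median 3′ UTR of all tested genes was 1096 bases long. The windows below are 30 bases of the RNA strand, 5′ to 3′, from GENCODE M21 transcripts (GRCm38, mm10), and capitals mark the heptamer, or a pair of overlapping copies where the capitals run longer.
Notch1 site a: tttttttttagTATTTATTTATgtactttt
Notch1 site b: cactgccttttTATTTATatgtattgtttt
Notch1 site c: taaatgctgttTATTTATtgattgcttctt
Notch3 site: cagtcttccttTATTTATaatgggtagggg
Notch4 site: tagctggcaacTATTTATtaagcacctacg
Jag1 site a: gatcatagtttTATTTATATTTATtgactc
Jag1 site b: aatgactttatTATTTATttttttttattg
Jag1 site c: tcattccttttTATTTATatgtatgtgttt
Jag1 site d: ttgaaaagtaaTATTTATtaaattttttgt
Dll4 site: tatataatgtgTATTTATaatatgaaacag

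All these windows lie in 3′ UTR exons. Those of Notch1 are at chr2:26459359-26459388, chr2:26459315-26459344 and chr2:26459161-26459190 on the minus strand, and that of Notch3 is at chr17:32121638-32121667 on the minus strand. Notch4's is at chr17:34588289-34588318 on the plus strand, and Dll4's is at chr2:119335618-119335647 on the plus strand. The Jag1 windows are at chr2:137082663-137082692, chr2:137082539-137082568, chr2:137082332-137082361 and chr2:137081467-137081496 on the minus strand. Of the 7 genes that rose, Notch3, Notch4, Jag1 and Dll4 held the heptamer, and Jag2, Hey1 and Heyl did not. Of the 3 that did not pass the test, Notch1 held it in 4 copies, and Notch2 and Hes1 did not. The presence of these letters is a description of the annotated transcripts, and binding was not measured here.

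Among the receptors, Notch3 and Notch4 rose and Notch1 and Notch2 did not pass the test. Notch3 (chr17:32120820-32166852, minus strand, mm10) had 196, 133, 238 and 179.7 normalised read counts in dKO livers 1 to 4, against 59.6, 60.5, 46.3 and 96.1 in control livers 1 to 4. Every dKO liver lay above every control liver, and control 4 was the highest of its group. The mean was 187 ± 43.2 in dKO livers and 65.6 ± 21.3 in control livers (SD, n = 4 each), a ratio of 2.84. The log2 change was 1.52 (SE 0.23, limma adjusted p = 0.000216), and the 2-sided exact permutation test gave p = 0.0286, the smallest that 4 livers against 4 allow.

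Notch4, the receptor best known from endothelium (chr17:34564268-34588503, plus strand), had 214, 220.0, 284 and 296 normalised read counts in dKO livers, against 115, 109.8, 92.6 and 118 in control livers. The groups were well apart, and dKO livers 3 and 4 were the highest. The log2 change of 1.21 had the smallest error of the 7 called genes (SE 0.14, limma adjusted p = 3.35e-05). Means were 253 ± 42.4 in dKO livers and 109 ± 11.3 in control livers (SD, n = 4 each), 2.33 times as high.

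Notch1, the receptor with roles in endothelium and lymphocytes (chr2:26457903-26516663, minus strand), had 422, 431, 478 and 482 normalised read counts in dKO livers, against 588, 662, 446 and 422 in control livers. The groups overlapped throughout the dKO range, and controls 1 and 2 were the highest of the 8. The log2 change was −0.20 (SE 0.14, limma adjusted p = 0.27). Notch2, the receptor that acts in bile duct formation (chr3:98013527-98150361, plus strand), had 1086, 1014, 1130.1 and 1149 in dKO livers, against 989, 941, 1217 and 980.1 in control livers. Here control 3 was the highest of all, and the log2 change was 0.09 (SE 0.09, limma adjusted p = 0.463). A p above the threshold does not show that these receptors were equal in the groups.

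Per kilobase of exon, the receptors' shares of the summed receptor level shifted along with these changes. Notch2 held 54.2% ± 2.01 of the receptor level per kilobase in dKO livers and 61.8% ± 5.83 in control livers (SD, n = 4 each). Notch3 held 12.2% ± 2.12 in dKO livers and 5.30% ± 1.94 in control livers. Notch4 held 16.7% ± 1.60 in dKO livers and 8.77% ± 1.20 in control livers, and Notch1 held 17.0% ± 0.734 in dKO livers and 24.1% ± 5.15 in control livers. These shares restate the counts above and were not tested on their own.

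All 3 ligands were higher in dKO livers. Jag1, the ligand mutated in Alagille syndrome in humans (chr2:137081456-137116644, minus strand), had 182, 165, 158 and 178 normalised read counts in dKO livers, against 86.3, 117, 86.2 and 116 in control livers. The groups did not overlap, and the dKO livers differed little among themselves. The log2 change was 0.76 (SE 0.15, limma adjusted p = 0.00123), with means of 170.5 ± 11.4 in dKO livers and 101 ± 17.3 in control livers (SD, n = 4 each).

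Jag2 (chr12:112907819-112929776, minus strand), a Serrate-type ligand like Jag1, was the scarcest of the 10 genes. It had 35.2, 18.5, 34.9 and 30.7 normalised read counts in dKO livers, against 6.16, 3.08, 1.05 and 13.7 in control livers. Control 4 was the highest control and control 3 the lowest, at 1 read, and all controls lay below all dKO livers. The log2 change of 2.62 had an SE of 0.60 (limma adjusted p = 0.00388), and it rested on 129 reads in the 4 dKO livers and 22 in the 4 control livers. Without control 4 it was 3.14, and without control 3 it was 2.08.

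Dll4, a ligand of endothelial cells (chr2:119325784-119335962, plus strand), had 112, 131, 169 and 99.6 normalised read counts in dKO livers, against 62.6, 51.3, 105 and 69.8 in control livers. The groups overlapped by a single pair, as control 3 lay above dKO 4. The log2 change was 0.84 (SE 0.23, limma adjusted p = 0.0116), and the 2-sided exact permutation test gave p = 0.0571. Quantile normalization ended this call, with a log2 change of 0.57 and a limma adjusted p of 0.0671. Over the other alternatives run, Dll4 stayed past the threshold.

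Among the effectors, Hey1 and Heyl rose and Hes1 did not pass the test. Hey1, a transcriptional repressor of vascular and other cells (chr3:8663359-8667256, minus strand), had 49.3, 48.1, 34.1 and 54.9 normalised read counts in dKO livers, against 8.21, 12.3, 8.41 and 25.2 in control livers. No control reached the lowest dKO liver, and control 4 stood above the other controls. At 1.88 (SE 0.37, limma adjusted p = 0.00146), its log2 change was the second highest of the 10, and without control 4 it was 2.22. Means were 46.6 ± 8.87 in dKO livers and 13.5 ± 7.98 in control livers (SD, n = 4 each).

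Heyl, a HEY family repressor (chr4:123233556-123249875, plus strand), had 77.4, 71.2, 95.4 and 81.0 normalised read counts in dKO livers, against 27.7, 19.5, 42.1 and 44.6 in control livers. The groups did not overlap, with controls 3 and 4 the highest of theirs. Heyl's log2 change was 1.33 (SE 0.27, limma adjusted p = 0.00165).

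Hes1, a repressor that many cell types express and that signals besides Notch also induce (chr16:30064384-30067796, plus strand), had 213, 403, 186 and 307 normalised read counts in dKO livers, against 241, 251, 292 and 265 in control livers. The dKO livers spread to both sides of all controls, with dKO 2 the highest and dKO 3 the lowest of the 8. Its log2 change was 0.01 (SE 0.20, limma adjusted p = 0.965), and its sign turned when dKO 2 was left out (−0.19). Hes1 held 80.7% ± 5.17 of the summed level per kilobase of the 3 effectors in dKO livers and 92.4% ± 2.47 in control livers (SD, n = 4 each). Hey1 held 8.88% ± 1.92 in dKO livers and 2.95% ± 1.62 in control livers, and Heyl held 10.4% ± 4.00 in dKO livers and 4.62% ± 1.33 in control livers.

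**Figure D2:**
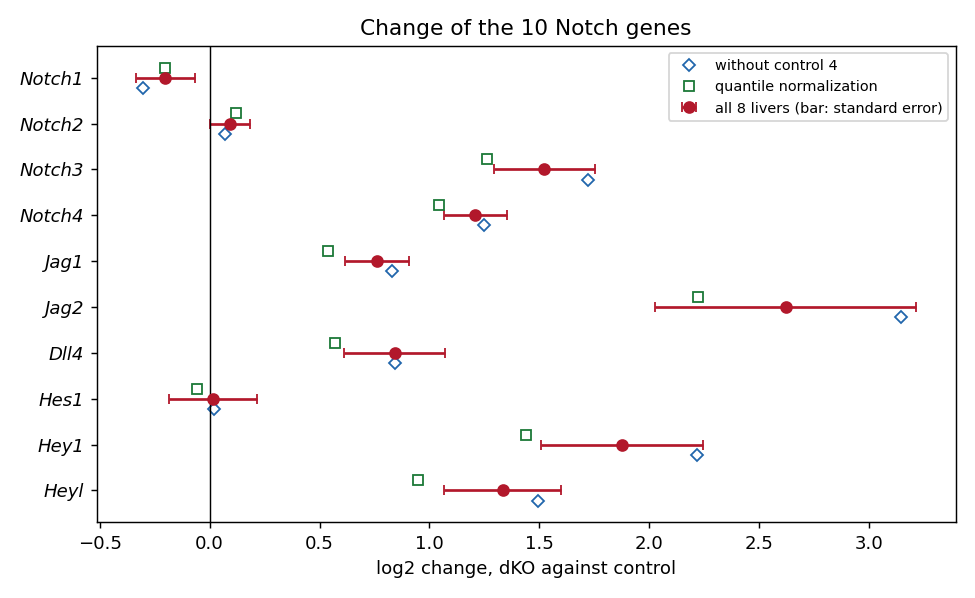
Log2 change of each Notch gene, dKO against control (horizontal axis; filled points with a bar of 1 standard error, all 8 livers), with the value without control 4 (diamonds) and with quantile normalization (squares). The 7 called genes stay to the right of 0 in all 3 settings, from 0.54 for Jag1 with quantile normalization to 3.14 for Jag2 without control 4.

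Set side by side per kilobase of exon, Hes1 and Notch2 had the highest levels of the 10 genes in both groups. In dKO livers Hes1 averaged 136 ± 48.5 and Notch2 101.5 ± 5.55 normalised read counts per kilobase, and their ranges overlapped. Dll4 (33.2 ± 7.84), Notch1 (31.9 ± 2.18), Notch4 (31.4 ± 5.25), Jag1 (29.3 ± 1.96) and Notch3 (23.1 ± 5.34) followed in dKO livers, each overlapping its neighbour in the order. Heyl (15.9 ± 2.01) and Hey1 (14.3 ± 2.72) were next, and Jag2 was last at 4.28 ± 1.12. Only the steps from Notch2 to Dll4 and from Hey1 to Jag2 were free of overlap in dKO livers.

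In control livers the order per kilobase ran from Hes1 (129 ± 10.9) through Notch2 (95.7 ± 11.6), Notch1 (37.2 ± 8.06), Dll4 (18.7 ± 6.04) and Jag1 (17.4 ± 2.97) to Notch4 (13.5 ± 1.40). Notch3 (8.11 ± 2.64), Heyl (6.55 ± 2.33), Hey1 (4.14 ± 2.44) and Jag2 (0.862 ± 0.798) came below it. Neighbours overlapped between Dll4 and Jag1, Notch4 and Notch3, Notch3 and Heyl, and Heyl and Hey1. The ranges of Notch4 and Notch1 overlapped in dKO livers, whereas in control livers all 4 values of Notch1 lay above those of Notch4.

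**Figure D3:**
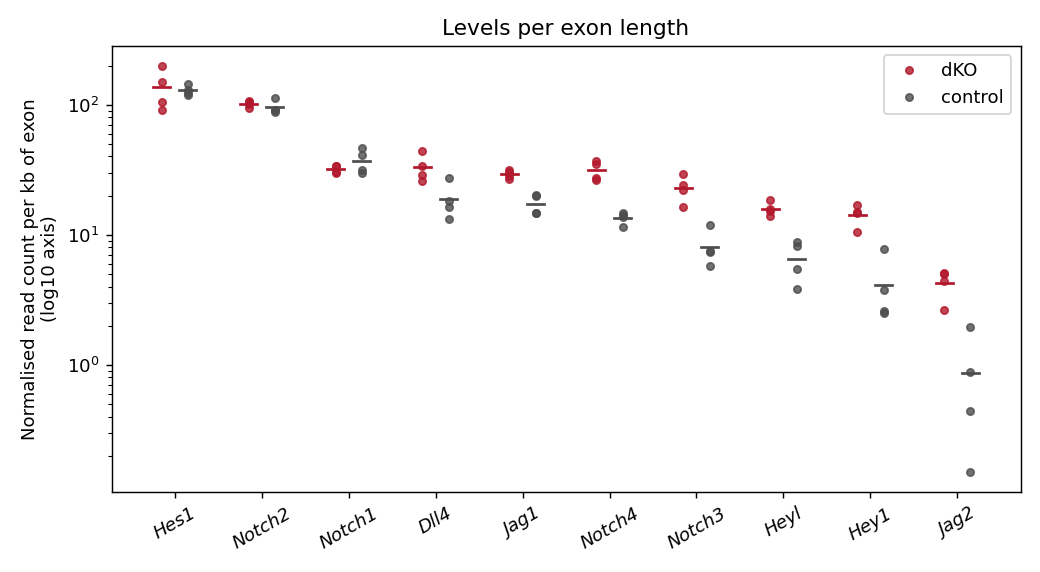
Normalised read count per kilobase of exon (log10 vertical axis) of the 10 Notch genes in dKO livers (left of each pair) and control livers (right); points are livers and lines are means. Hes1 (136 in dKO livers, 129 in control livers) and Notch2 stand above the other genes in both groups, and Jag2 (4.28 in dKO livers, 0.862 in control livers) below them.

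For each gene that rose, the tested genes whose profile of log2 values over the 8 livers lay nearest were listed by the root mean square difference, among 12574 genes compared. Those nearest to Notch3 were Kctd12b (0.140), Zfp827 (0.169) and Col4a5 (0.174), a collagen of basement membranes. Notch4 was nearest to Gpsm3 (0.0900), Axl (0.0998), a receptor tyrosine kinase, and Slc43a2 (0.113). For Jag1 they were Etnk2 (0.0626), Dennd1c (0.0984) and Coro1c (0.0999). These distances are descriptions, since livers of the same 2 groups underlie every profile.

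Jag2 lay nearest to Mgp (0.308), Sema3g (0.342) and Myof (0.356), and Dll4 to Ms4a4d (0.175), Utp14b (0.192) and Acly (0.200), the lipogenic ATP citrate lyase. Hey1 lay nearest to Fmnl1 (0.177), Pla2g7 (0.190) and Adamtsl1 (0.211), and Heyl to Kif15 (0.131), Cklf (0.166) and Lhfp (0.167). No Notch gene was among these nearest genes of another. Among the 7 genes that rose, Notch4 and Jag1 lay closest to each other, at 0.311.

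The rest of the pathway moved in both directions. Of 78 other pathway genes listed by role, 74 had a row and 72 were tested, and 23 were called higher, 13 lower and 36 neither by limma. That is 31.9% higher and 18.1% lower, against 21.2% and 17.0% of all genes tested, and the median log2 change was 0.15. The list was split into 7 roles, which differed in their counts, and the differences between roles were not tested.

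**Figure D4:**
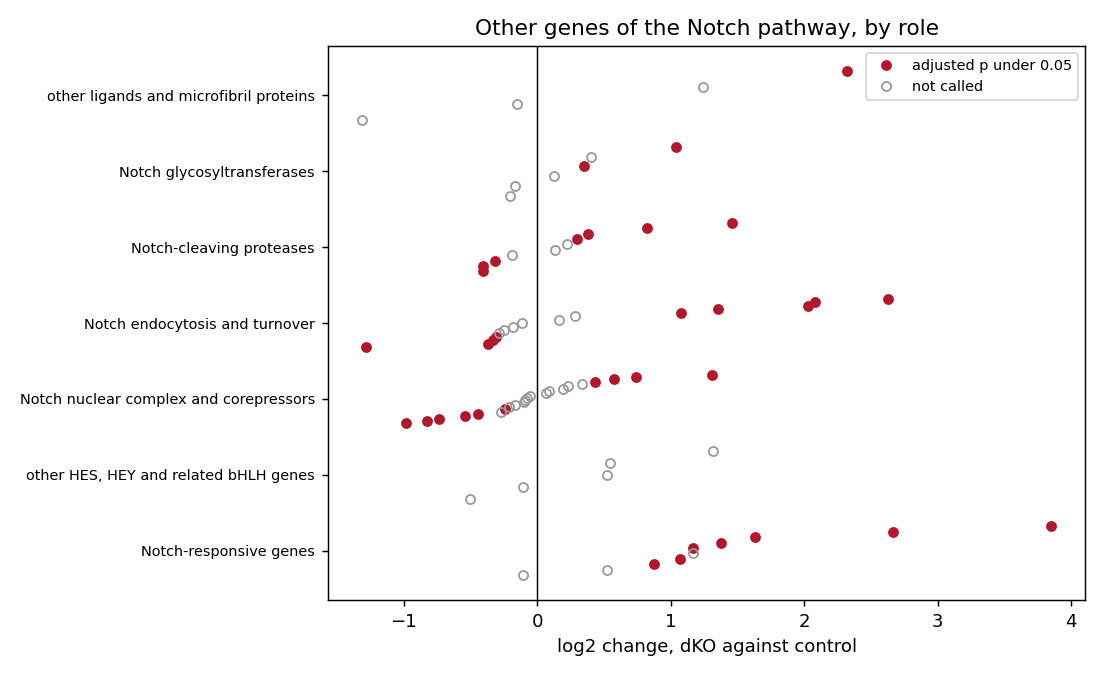
Log2 change, dKO against control (horizontal axis), of 72 other Notch pathway genes grouped by role; filled points passed a limma adjusted p of 0.05 and open points did not. The endocytosis and turnover genes reach from −1.28 (Dtx4) to 2.63 (Neurl1a), and the Notch-responsive genes reach 3.85 (Spp1).

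Among other ligands and ligand-like proteins, 1 of 4 tested genes was higher and none lower, against 21.2% and 17.0% of all genes tested. That gene was Mfap2, a microfibril protein that can bind Notch ligands and NOTCH1, with a log2 change of 2.32 (SE 0.45, limma adjusted p = 0.00142). Dll1, a canonical ligand singled out after its values were seen, averaged 106 ± 8.14 normalised read counts in dKO livers and 117 ± 4.37 in control livers (SD, n = 4 each). Its limma adjusted p was 0.396, and 0.0215 with quantile normalization at a log2 change of −0.41. Among the enzymes that add sugars to Notch receptors, 2 of 6 rose, or 33.3%, against 21.2% of all genes tested. The fringe Mfng rose by 1.04 (SE 0.25, limma adjusted p = 0.00606), with control 4 the highest control at 59.5, and Eogt by 0.35 (SE 0.12, limma adjusted p = 0.0304), a call that 7 of 17 alternatives ended.

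Of 10 genes for Notch-cleaving proteases, 4 rose and 3 fell, against 21.2% higher and 17.0% lower over all genes tested. Adam10, which makes the ligand-triggered cut, had a log2 change of 0.38 (SE 0.10, limma adjusted p = 0.00856). The γ-secretase subunits went different ways. The catalytic subunit Psen2 fell by 0.40 (limma adjusted p = 0.0094, and 0.0828 with quantile normalization). The accessory subunit Psenen fell by 0.41 (limma adjusted p = 0.00287). Of the APH1 subunits, Aph1a fell to 1051 ± 64.4 normalised read counts in dKO livers, against 1306 ± 103 in control livers (SD, n = 4 each). Aph1c rose by 1.46 on the log2 scale (SE 0.27, limma adjusted p = 0.00104). Aph1b and Aph1c are near-identical copies, so the counting could have split reads between them, and this value is uncertain.

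Among 15 genes for ligand endocytosis and receptor turnover, 5 rose and 4 fell. That is 33.3% higher and 26.7% lower, against 21.2% and 17.0% of all genes tested. Neurl1a and Neurl1b, ubiquitin ligases of the Neuralized family that act on Notch ligands, rose by 2.63 (SE 0.32, limma adjusted p = 3.63e-05) and 2.03 (SE 0.31, limma adjusted p = 0.00023). Numb, an endocytic inhibitor of Notch, fell to 624 ± 46.5 normalised read counts in dKO livers, against 806 ± 32.6 in control livers (SD, n = 4 each). Its paralog Numbl rose to 116 ± 8.51 in dKO livers, against 29.0 ± 12.4 in control livers. Of the Deltex ubiquitin ligases, Dtx3 rose (log2 change 1.08, SE 0.18, limma adjusted p = 0.000386) and Dtx4 fell (log2 change −1.28, SE 0.14, limma adjusted p = 1.91e-05).

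The nuclear complex and its corepressors gave 4 higher and 6 lower genes of 22. That is 18.2% higher and 27.3% lower, against 21.2% and 17.0% of all genes tested. Rbpj, the DNA-binding subunit, singled out after its values were seen, averaged 293 ± 8.12 normalised read counts in dKO livers and 311 ± 50.6 in control livers (SD, n = 4 each; limma adjusted p = 0.659). The corepressor Ncor1 fell by 0.83 on the log2 scale (SE 0.11, limma adjusted p = 7.96e-05). Of the Groucho-type corepressors, Tle2 fell by 0.98 (limma adjusted p = 8.66e-06), Tle1 fell by 0.54 (limma adjusted p = 0.000638) and Tle3 rose by 0.74 (limma adjusted p = 0.000148). Ctbp2, a corepressor with a splice form of synapses, rose by 1.31 (limma adjusted p = 0.000327).

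Of 5 tested other HES, HEY and related bHLH genes, none passed limma's test at the adjusted threshold. Over all genes tested, 21.2% were called higher and 17.0% lower. At an unadjusted p under 0.05 limma had 1 higher and 0 lower, edgeR called 0 of the 3 genes it tested, and DESeq2 called 1 higher. Bhlhe40 was the nearest to it, with 2471 ± 401 normalised read counts in dKO livers and 1743 ± 512 in control livers (SD, n = 4 each; limma adjusted p = 0.0505), and it passed the threshold in 6 of 17 alternatives, with adjusted p from 0.0238 to 0.151. Hes6 had a log2 change of −0.11 (limma adjusted p = 0.517).

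Of 10 genes known to respond to Notch in some cell types, 7 rose and none fell, against 21.2% higher and 17.0% lower over all genes tested. Spp1, the secreted phosphoprotein osteopontin of bile duct and inflammatory cells, had 7266, 11761, 10086 and 8879.6 normalised read counts in dKO livers, against 601, 495, 476 and 1247 in control livers. The groups lay far apart, with a log2 change of 3.85 (SE 0.25, limma adjusted p = 2.93e-07). Sox9, a transcription factor of bile duct cells, rose by 0.87 (SE 0.18, limma adjusted p = 0.00206).

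The cell cycle gene Ccnd1 rose by 2.66 (SE 0.22, limma adjusted p = 1.69e-06) and Myc by 1.63 (SE 0.34, limma adjusted p = 0.00231). The arterial ligand Efnb2 rose by 1.38 and the cell cycle inhibitor Cdkn1a by 1.17. These genes also respond to many signals other than Notch. Nrarp, a feedback inhibitor that Notch induces directly and that was singled out after its values were seen, had 19.1, 19.4, 12.8 and 20.5 normalised read counts in dKO livers, against 12.3, 10.3, 3.16 and 8.01 in control livers. All dKO livers lay above all controls, and at a log2 change of 1.17 (SE 0.44) limma's adjusted p was 0.0553. In 4 of 17 alternatives Nrarp passed the threshold, with adjusted p from 0.038 (edgeR) to 0.214 over all of them.

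Markers of the cells in which Notch genes are known to be used also differed between the groups, and their counts stand against 21.2% higher and 17.0% lower over all genes tested. Of 12 mural and smooth muscle markers, 7 were called higher and none lower, and their summed level was 3305 to 4172 normalised read counts in dKO livers, against 1312 to 2674 in control livers. The contractile protein Myh11 overlapped between the groups, with 382, 39.8, 104.7 and 166 in dKO livers, against 217.7, 211, 35.8 and 510.1 in control livers. Pdgfrb, the pericyte and stellate cell receptor, had 561 to 818 in dKO livers, against 109.8 to 204 in control livers. Of 12 bile duct markers, 9 were higher and none lower, with a sum of 3681 to 4706 in dKO livers, against 2127 to 2848 in control livers.

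Of 15 endothelial markers, 6 were higher and 3 lower, with overlapping sums of 10305 to 13244 normalised read counts in dKO livers, against 8954 to 10924 in control livers. Of 12 stellate cell and fibroblast markers, 9 were higher and none lower, and the sums of 21319 to 29078 in dKO livers lay above those of 4773 to 12409 in control livers. The monocyte and macrophage list had 9 of 12 genes higher and the neutrophil list 9 of 9. Ltf, a defining neutrophil granule gene, was at 0 in all 4 control livers. The T, NK and B cell list had 1 gene higher and 4 lower of 11, and the hepatocyte list 2 higher and 4 lower of 11, with overlapping sums in both. T, NK and B cell sums were low, at 93.4 to 123 normalised read counts in dKO livers, against 92.6 to 153 in control livers. Of the T, NK and B cell genes edgeR tested 5, and it called 1 higher and 2 lower. Control 4 had the highest control sum in all lists but the endothelial and the lymphocyte ones. For the stellate and fibroblast list it had 12409 normalised read counts, against 4773 to 6524 in the other controls. The part of these shifts in cell markers in the Notch gene results was not tested.

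**Figure D5:**
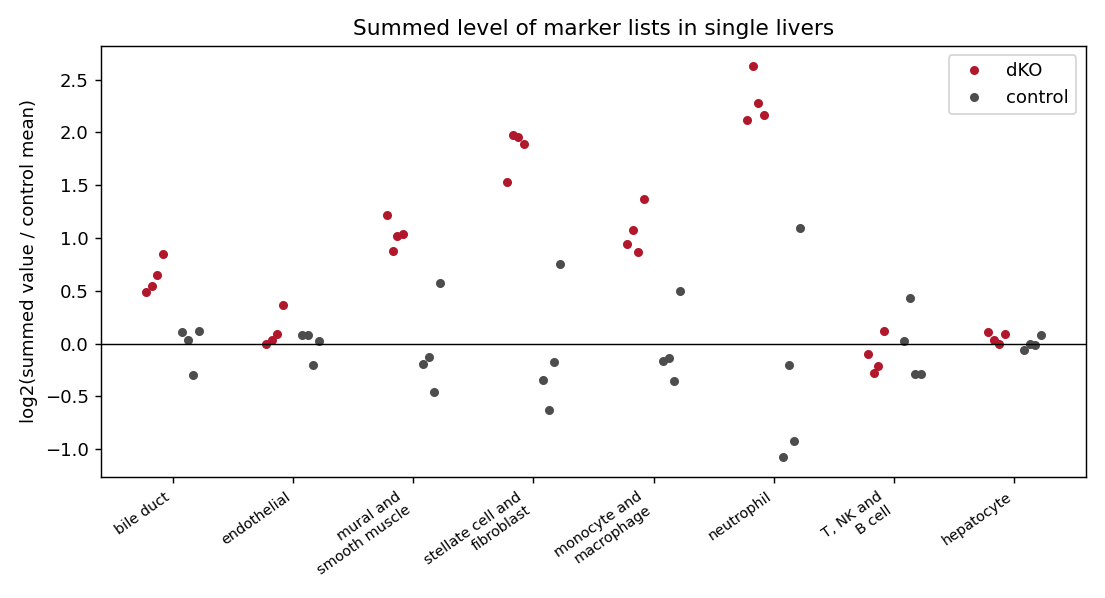
Summed normalised read count of each marker list in single livers, as log2 of its ratio to the control mean (vertical axis), with dKO livers left of control livers for each list. The bile duct, mural, stellate, monocyte and neutrophil sums do not overlap between the groups, and the endothelial, lymphocyte and hepatocyte sums do.

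Each Notch gene was also divided by the summed level of a marker list in the same liver, a description added after the data were seen and given with no p. Set against the endothelial sum, Notch3, Notch4, Jag1, Jag2, Hey1 and Heyl kept dKO livers above all controls, with log2 changes of the ratio from 0.64 (Jag1) to 2.49 (Jag2). Against the bile duct sum, the log2 change of the ratio was 0.57 for Notch4 and 0.88 for Notch3, both without overlap. For Jag1 it was 0.12, for Dll4 0.20, for Heyl 0.69, for Hey1 1.23 and for Jag2 1.98, with overlapping groups in each. Most of that sum is Aqp1, which endothelial and other cells also express and which did not pass the test (2504 ± 423 normalised read counts in dKO livers and 2239.6 ± 282 in control livers, SD, n = 4 each; limma adjusted p = 0.358). The median log2 change over the 12 bile duct markers was 1.54, above the log2 changes of Notch3, Notch4, Jag1, Dll4 and Heyl and below those of Jag2 and Hey1. In the other lists this median was 0.11 (endothelial), 1.00 (mural) and 1.05 (stellate and fibroblast). Of the 12 bile duct markers, edgeR tested 9, and in 6 of the 12 the groups did not overlap. The stellate and fibroblast sum itself had a log2 ratio of group means of 1.85, above the median of its markers. Against the mural sum the log2 change of the ratio was 0.43 for Notch3 and 1.53 for Jag2, both without overlap, 0.24 for Heyl, 0.12 for Notch4 and −0.33 for Jag1. Against the stellate and fibroblast sum it was −0.42 for Notch3, −0.73 for Notch4, −1.18 for Jag1, −0.06 for Hey1 and 0.68 for Jag2, and the groups overlapped for all of these but Jag1. In the pathway and marker lists given with none lower, limma's unadjusted p, edgeR and DESeq2 also gave 0 lower.

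Since the strand setting of the counting is not given, reads from genes on opposite strands cannot be told apart. Exons of Notch3 overlap those of Gm17276 on the other strand, which had 0 to 3.41 normalised read counts in dKO livers and 0 to 6.86 in control livers. Dll4 overlaps Gm14207 (4.62 to 16.8 in dKO livers, 5.72 to 15.4 in control livers), and Notch1 overlaps 0610009E02Rik (2.79 to 11.9 in dKO livers, 6.31 to 8.21 in control livers). Exons of Notch2 overlap those of a gene on the same strand, and exons of Notch1 overlap those of a further gene on the other strand. Neither of these genes had a row, so their levels are not known here. Notch4, Jag1, Jag2, Hes1, Hey1 and Heyl share no annotated exon with another gene.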

How the data were processed

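Liver RNA of 8 mice, 4 dKO and 4 control, was sequenced from total RNA. The submitters' processing notes name build mm10 and, in no stated order, the tools DESeq2, featureCounts 1.5.0-p3, HISAT2 2.0.5 and fastp. Which annotation, strand setting or filters applied is not given in the sources. The deposited signal table is named for FPKM, but every value is within 0.001 of a whole multiple of 1 step per library, so it holds reads per gene scaled by the authors with a size factor for each library. A value of 0 allows up to 3 reads (2.55 to 3.43 after scaling), a floor for counting error only. Symbols were matched for 21812 of 22052 identifiers.

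Genes whose mean over the 8 livers reached 0.5 were kept, 20055 in all, and 0.5 was added to each value before log2 was taken. For Jag2, the scarcest Notch gene, the log2 change was 2.62 in this setting and 2.78 with a pseudocount of 0.1. Lower values came from edgeR (2.32) and DESeq2 (2.33) on recovered reads, so folds of low genes are not always understated. The log2 values were tested with limma 3.58.1 (R 4.3.3, eBayes with a trend, group only, 2-sided, Benjamini-Hochberg). All 10 Notch genes passed that filter. Exact permutation tests used all assignments of livers. Of simulated 2-fold changes in this comparison (200 of 19900 genes changed), 81% were found, and 6.74% of calls were false. The changed genes were drawn only from genes above a minimum mean read count. Far fewer genes were changed than were called in the livers, so these rates may not hold for scarce genes or for the real comparison. Alternatives were other pseudocounts (1, 0.1), no filter, a mean of 10, quantile normalization, robust variances, a replicate block, edgeR 4.0.16 and DESeq2 1.42.0 on recovered reads, and each liver left out. Each liver is a separate numbered mouse.

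The Notch genes and all lists were chosen with earlier results of these data known. In each role list up to 6 called genes with the smallest adjusted p are named, or the 2 highest where none passed, except some that are not reported here; Rbpj, Nrarp, Dll1 and the marker genes named were chosen after their values were seen. Exon lengths and 3′ UTRs are those of GENCODE M21.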

Additional observations from a re-analysis of the deposited data

Results flagged for a closer look

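In 90 groups of 4 livers (45 genes in each of the dKO and control groups), 7 had a liver whose gap to its nearest neighbour, divided by the group's range, was above Dixon's 95% critical value; chance gives about 1 in 20. None was a group of one of the 10 Notch genes. Zfp36l1 had 267 normalised read counts in dKO 4, against 209.5 to 214 in the other dKO livers. Zfp36l2 had 997 in control 3, against 1722 to 1819.6 in the other controls. Control 4 stood above the other controls for Mfap2 (21.7, others 4.10 to 6.31), Mfng (59.5, others 28.7 to 32.6), Neurl1b (28.6, others 12.3 to 13.7) and Spp1 (1247, others 476 to 601). Myc had 277 in dKO 4, against 201 to 208 in the other dKO livers.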

How the results depend on the processing

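Over 17 alternatives, the calls of Notch3, Notch4, Jag1, Jag2, Hey1 and Heyl held in every one, with the highest adjusted p at 0.0213 (Jag2), and Dll4 lost its call under quantile normalization alone. That setting gave 6 Notch genes higher and 0 lower, with their median log2 change at 0.76 against 1.02. It moved the median of all genes to −0.08 (0.03 without it) and the calls over all genes to 3638 higher and 4312 lower, against 4244 and 3410. With each liver left out in turn, 7 Notch genes were higher and 0 lower, other pathway genes called higher ranged from 20 to 25, and the log2 change of Zfp36 ranged from −0.35 to −0.16 and passed the threshold without dKO 2 or control 3. Genes with no call changed sign as follows: Hes1 ranged from −0.19 to 0.18 and was −0.058 with quantile normalization, −0.06 without dKO 4, −0.02 without control 1 and −0.00492 without control 2, Hes6 ranged from −0.18 to 0.00101 (above 0 only without control 3), and Rbpj from −0.15 to 0.031 (above 0 only without control 4). Of 27 called pathway genes taken by the naming rule, 25 kept their call in every alternative, the exceptions being Eogt and Psen2. Calls were gained by Bhlhe40 in 6 alternatives, Nrarp in 4 and Dll1 in 1 (quantile normalization). The labels do not say whether same-numbered livers are pairs, and deviations of same-numbered livers correlated at 0.0324, −0.0693, 0.0375 and 0.0769. Livers dKO 1, dKO 3, dKO 4, control 1 and control 4 correlated best with their own number, and dKO 2, control 2 and control 3 did not. Correlations this small cannot show whether the numbers pair the livers. With the replicate block, 7 Notch genes were higher and 0 lower, and 4021 genes were higher and 3112 lower in all. Jag2, with 129 reads in all dKO livers and 22 in all control livers, is the Notch gene that depth limits most.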
